A study of Mus musculus with 20 samples.

Results

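The interleukin-1 family was followed through 10 genes, picked by symbol for their role: the agonists Il1a, Il1b, Il18 and Il33, the inhibitors Il1rn, Il1r2 and Il18bp, and the receptor chains Il1r1, Il1rap and Il1rl1. All 10 were found among the 43629 genes of the deposited count table. The RNA came from nuclei of mouse spinal cord, stained for the neuronal nuclear protein NeuN and separated in a flow cytometer. Some mice had experimental autoimmune encephalomyelitis (EAE), a model of multiple sclerosis in which active immunization sets off an immune attack on brain and spinal cord, and were taken 15 days later; the others were healthy. The 4 groups were NeuN-positive nuclei of EAE mice, NeuN-positive nuclei of healthy mice, NeuN-negative nuclei of EAE mice and NeuN-negative nuclei of healthy mice, with 5 libraries each. The labels name no strain, genotype, age, antigen or adjuvant for any group, and do not say whether a library came from a single mouse. The p-values therefore measure the spread between libraries, which may be partly technical.

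Interleukin-1 alpha and beta bind the receptor chain encoded by Il1r1, which recruits the accessory chain encoded by Il1rap and signals through Myd88 and IRAK kinases to NF-kappaB. The receptor antagonist (Il1rn) occupies the same receptor without signalling, the decoy receptor (Il1r2) binds the ligand without a signalling domain, and interleukin-18 binding protein (Il18bp) captures interleukin-18 in solution. Interleukin-1 beta and interleukin-18 are made as precursors that inflammasome caspases cleave, whereas interleukin-33 is a nuclear protein, abundant in oligodendrocytes and astrocytes of the spinal cord, that acts through Il1rl1 (also called ST2) and Il1rap once it leaves the cell.

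In the GENCODE M21 annotation of GRCm38, matched by gene identifier, both IL-1 agonists lie on the minus strand of chromosome 2, Il1a at 129299610 to 129309972 (7 exon blocks) and Il1b at 129364570 to 129371139 (6 exon blocks). Il1rn lies on the plus strand of chromosome 2 at 24336853 to 24351494. The receptor genes Il1r2 (40074079 to 40125231), Il1r1 (40225080 to 40317257) and Il1rl1 (40429570 to 40465415) follow each other on the plus strand of chromosome 1. Il1rap is on chromosome 16 (26581704 to 26730117), Il18 on chromosome 9 (50554827 to 50581840), Il18bp on chromosome 7 (102014885 to 102018690) and Il33 on chromosome 19 (29925114 to 29960718). The counts are per whole gene, so no value below refers to a particular exon or UTR. Whether reads in introns were counted is not given in the sources used here.

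The promoters of Il1a, Il1b and Il1rn are shown because these 3 genes encode the ligands of the IL-1 receptor, and their transcripts were higher in EAE than in healthy mice in both sorts. Il1r2 was also higher in both sorts; its window, not printed, held none of the motifs below. The sequences are the 250 bases before the RefSeq start of each gene (GRCm38.p6), read 5′ to 3′ on the strand of the gene, at chr2:129309973-129310222 (minus) for Il1a, chr2:129371140-129371389 (minus) for Il1b and chr2:24336610-24336859 (plus) for Il1rn, the first of its 3 listed starts. Capitals mark matches to 4 motifs searched on both strands.
Il1a: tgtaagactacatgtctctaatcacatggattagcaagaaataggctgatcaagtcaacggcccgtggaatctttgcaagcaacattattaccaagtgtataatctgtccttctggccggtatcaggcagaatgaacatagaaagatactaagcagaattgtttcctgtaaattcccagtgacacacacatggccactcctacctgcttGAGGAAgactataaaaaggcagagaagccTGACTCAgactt
Il1b: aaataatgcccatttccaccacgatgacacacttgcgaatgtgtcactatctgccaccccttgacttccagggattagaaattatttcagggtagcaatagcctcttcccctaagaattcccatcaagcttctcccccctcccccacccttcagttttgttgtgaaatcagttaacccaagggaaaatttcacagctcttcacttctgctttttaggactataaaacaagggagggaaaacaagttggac
Il1rn: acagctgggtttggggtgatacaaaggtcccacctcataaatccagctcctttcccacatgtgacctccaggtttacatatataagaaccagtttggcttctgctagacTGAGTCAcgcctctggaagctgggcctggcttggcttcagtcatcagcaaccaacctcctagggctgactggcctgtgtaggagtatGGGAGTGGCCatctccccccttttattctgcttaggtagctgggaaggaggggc
The motifs were those of NF-kappaB (GGG and CC with 5 bases of any kind between), PU.1 (GAGGAA), AP-1 (TGANTCA) and ISRE, the interferon-stimulated response element (GAAA and GAAA with 2 bases of any kind between), and no 2 matches in these windows overlapped. The Il1a window held the AP-1 letters beginning at base -12 and the PU.1 letters at base -41, counted from the start. The Il1rn window held the AP-1 letters at base -141 and the NF-kappaB letters at base -54, and the Il1b window held none of the 4. The windows of the other Il1rn starts, not printed, lacked the AP-1 letters. The second held none of the 4 motifs and the third only the NF-kappaB letters, at base -51. Of 32536 promoter windows of this length, 46% held the NF-kappaB letters, 23.4% those of PU.1, 6.73% those of AP-1 and 2.98% those of ISRE. A match is a run of letters and not evidence of binding.

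Libraries held 7072200 to 18686997 counts in EAE NeuN-positive, 12076860 to 30499828 in healthy NeuN-positive, 3149209 to 15525441 in EAE NeuN-negative and 8336330 to 37689267 in healthy NeuN-negative nuclei. Of 10 neuronal marker genes, 8 were called higher in NeuN-positive than in NeuN-negative nuclei of EAE mice and 7 in healthy mice, and all 9 microglial markers were called lower in both. Of all genes, 15.5% were called higher and 14.8% lower in this comparison of EAE mice, and 22.8% and 23.0% in healthy mice. Oligodendrocyte marker transcripts (10 genes, summed) were also present in NeuN-positive libraries, at 10771 to 97901 CPM (counts scaled to library size) in EAE and 3629 to 44412 CPM in healthy mice. Mitochondrially encoded transcripts took a median of 1.22% of counts in EAE NeuN-positive, 0.302% in healthy NeuN-positive, 7.94% in EAE NeuN-negative and 1.44% in healthy NeuN-negative libraries. In 3 replicate numbers, taken here as mice (EAE 2, EAE 4 and healthy 3), they took over 2% of the NeuN-positive library, and these were also the NeuN-positive libraries with the most oligodendrocyte marker transcripts. Results that turn on these mice are also given without them. Leaving them out does not level the mitochondrial share in NeuN-negative nuclei. The libraries kept there held 2.18% to 7.94% in EAE and 0.367% to 2.03% in healthy mice.

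In NeuN-negative nuclei of EAE mice Il1b, Il1rn, Il1r2, Il1rl1, Il1a and Il1r1 were higher, and Il18, Il33 and Il1rap were lower, than in healthy mice. In NeuN-positive nuclei Il1rn, Il1b and Il1r2 were higher, and no tested member was lower. Genes were tested with edgeR's quasi-likelihood test and called at an adjusted p under 0.05 (Benjamini-Hochberg over all genes tested). That gave 6 members higher and 3 lower of 10 tested in NeuN-negative nuclei, where 15.1% of all genes tested were called higher and 12.6% lower. In NeuN-positive nuclei it gave 3 higher and 0 lower of 8 tested, against 6.55% and 3.68% of all genes; at an unadjusted p under 0.05 the lower count was 0, and the DESeq2 Wald test called 0 lower. The median log2 fold change of the members tested was 1.93 in NeuN-negative and 0.37 in NeuN-positive nuclei, beside 0.05 and -0.03 over all genes. Without the 3 mice the counts were 7 higher and 3 lower in NeuN-negative nuclei and 3 higher and 0 lower in NeuN-positive nuclei. Il1a and Il1rl1 had too few counts for the fit in NeuN-positive nuclei and are described by exact tests. Counts of marker genes called in EAE, given below, stand beside the shares of all genes above. In nuclei pooled from many cells, fewer cells of a type and less RNA per cell cannot be told apart.

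**Figure D1:**
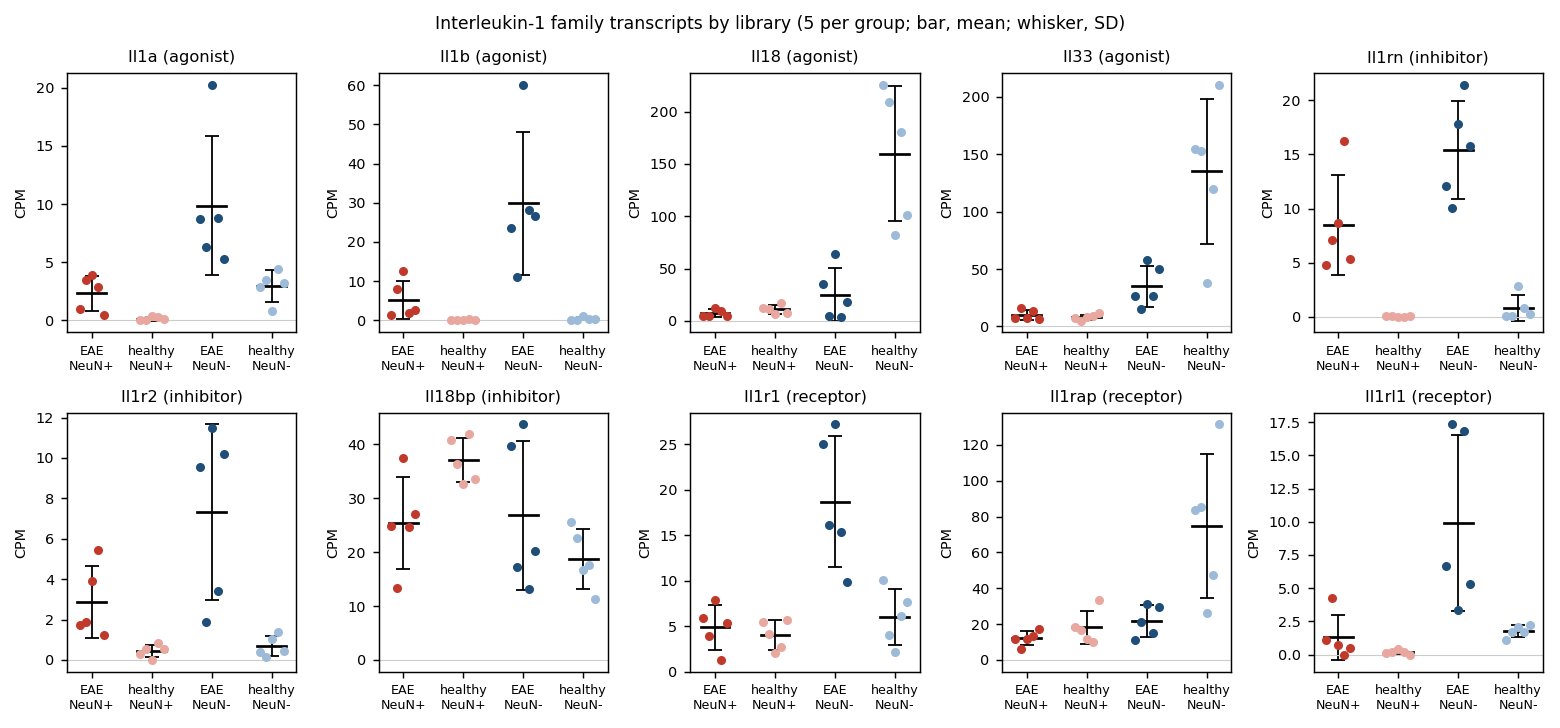
CPM (vertical axes, linear, a separate scale per gene) of the 10 genes in each of the 20 libraries, with points for libraries, bars for group means and whiskers for the SD (n = 5). Il1b, Il1rn, Il1r2 and Il1a stand above the healthy libraries in both sorts of EAE mice, whereas Il18 stands highest in healthy NeuN-negative libraries (81.8 to 225 CPM) and at 63.5 CPM or less in every EAE library.

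Il1b, the inflammasome-dependent agonist, was close to absent in healthy spinal cord nuclei. In libraries 1 to 5, in that order as everywhere below, it had 1.28, 8.05, 12.5, 1.73 and 2.62 CPM in EAE NeuN-positive nuclei, against 0.0499, 0, 0, 0.411 and 0 CPM in healthy NeuN-positive nuclei. NeuN-negative nuclei held 23.5, 11.0, 60.0, 28.0 and 26.5 CPM in EAE mice, against 0.102, 0.0812, 1.16, 0.341 and 0.284 CPM in healthy mice. Every EAE library lay above every healthy library of its sort, and EAE 3 was the highest in both. The log2 fold change of EAE over healthy was 6.03 ± 1.12 (SE; edgeR adjusted p = 0.00362) in NeuN-positive and 6.74 ± 0.69 (edgeR adjusted p = 6.12e-06) in NeuN-negative nuclei. The healthy NeuN-positive libraries held only 7 Il1b counts in all, against 373 in EAE, a pooled CPM ratio of 88.5 with a 95% interval from 42.5 to 222 that covers counting error only. The fitted NeuN-positive value was 8.19 without healthy 4, which held most of those counts, and 5.40 without EAE 3, and the NeuN-negative value was 7.78 ± 0.56 without the 3 high-mitochondrial mice and 7.46 without healthy 3 alone; all stayed called. Il1b shares 25 exonic bases with the annotated Il1bos, which averaged 0.268 CPM in EAE NeuN-positive, 0.0705 CPM in healthy NeuN-positive, 1.37 CPM in EAE NeuN-negative and 0.735 CPM in healthy NeuN-negative nuclei; without a stated strand setting their shared reads cannot be told apart.

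Il1a, the agonist that needs no inflammasome, was already present in every healthy NeuN-negative library. It had 0.998, 3.47, 3.88, 2.88 and 0.459 CPM in EAE NeuN-positive nuclei, against 0, 0, 0.397, 0.274 and 0.140 CPM in healthy NeuN-positive nuclei. NeuN-negative nuclei had 8.75, 6.30, 20.2, 8.81 and 5.24 CPM in EAE mice, against 2.90, 3.49, 0.772, 4.44 and 3.25 CPM in healthy mice. The groups did not overlap in either sort, although EAE 5 and healthy 3 lay side by side in NeuN-positive nuclei. The NeuN-negative log2 fold change was 1.98 ± 0.53 (edgeR adjusted p = 0.0123) and was 1.53 (edgeR adjusted p = 0.0559) without EAE NeuN-negative 3, the library with the most Il1a. The call was also lost in a fit of all 20 libraries (1.74, edgeR adjusted p = 0.0538). The NeuN-positive difference of means was 2.17 CPM (exact permutation test, two-sided, p = 0.00794, the smallest that 252 regroupings allow; 0.0159 after adjustment over the 4 such tests). Monocyte and macrophage markers were also higher in EAE. The 10 genes summed to 305 to 1824 CPM in EAE and 3.65 to 24.9 CPM in healthy NeuN-positive nuclei. In NeuN-negative nuclei they summed to 743 to 2519 CPM in EAE and 26.1 to 78.0 CPM in healthy mice. The sums were highest in EAE NeuN-positive 2 and EAE NeuN-negative 1, whereas both agonists were highest in EAE 3. All 10 monocyte and macrophage markers were called higher in EAE in both sorts, and none was at 0 in a whole group. Most tested neutrophil and T cell markers, given below, were called higher in EAE too. The part of any of these cell types in the Il1a and Il1b differences was not tested.

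Il18, made constitutively by microglia and other cells, went the other way. NeuN-negative nuclei held 35.7, 4.73, 63.5, 4.20 and 18.1 CPM in EAE mice, against 225, 209, 81.8, 180 and 101 CPM in healthy mice. The groups did not overlap, and EAE 2 and EAE 4 were the lowest (log2 fold change -2.47 ± 0.58, edgeR adjusted p = 0.00535, and -3.18 without EAE 3). NeuN-positive nuclei held 5.06, 4.58, 12.6, 9.64 and 5.05 CPM in EAE mice, against 12.3, 11.6, 6.46, 16.8 and 7.96 CPM in healthy mice. These groups overlapped and the difference was not called (-0.49 ± 0.37, edgeR adjusted p = 0.399). The summed level of 9 microglial markers was 986, 182, 928, 242 and 809 CPM in EAE NeuN-negative nuclei, lowest in the same EAE 2 and EAE 4, against 467 to 671 CPM in healthy NeuN-negative nuclei. In EAE 1, 3 and 5 these sums lay above every healthy library, whereas Il18 lay below every healthy library in all EAE libraries. Of the microglial markers 1 was called higher and 1 lower in EAE NeuN-negative nuclei, beside 15.1% and 12.6% of all genes, and none was at 0. Of the other glial markers, 6 of 10 for oligodendrocytes, 3 of 5 for their precursors and 2 of 10 for astrocytes were called lower there. The part of any of these cell types in the Il18 difference was not tested.

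Il33, the nuclear alarmin of glia, was also lower in EAE NeuN-negative nuclei, with 26.1, 15.1, 58.1, 26.6 and 49.6 CPM, against 155, 153, 38.1, 120 and 210.3 CPM in healthy NeuN-negative nuclei. The groups overlapped in a single healthy library, healthy 3, which had less Il33 than EAE 3 and EAE 5 (log2 fold change -1.67 ± 0.41, edgeR adjusted p = 0.0074). In NeuN-positive nuclei Il33 had 7.48, 15.8, 6.96, 13.1 and 6.17 CPM in EAE mice, against 7.44, 5.10, 7.85, 8.83 and 11.3 CPM in healthy mice. The 2 highest were EAE 2 and EAE 4, mice with a high mitochondrial share, and the log2 fold change of 0.38 ± 0.36 (edgeR adjusted p = 0.504) became -0.14 without the 3 such mice. Oligodendrocyte markers summed to 97901 CPM in EAE 2 and 50014 CPM in EAE 4, against 10771 to 12616 CPM in the other EAE NeuN-positive libraries. Their part in the Il33 level of these libraries was not tested. In NeuN-negative nuclei these 10 oligodendrocyte markers summed to 31794 to 110084 CPM in EAE and 40764 to 71241 CPM in healthy mice, and 6 of the 10 were called lower in EAE. Astrocyte markers, also 10 genes, were 1808 to 3623 CPM in EAE and 3087 to 4671 CPM in healthy NeuN-negative nuclei, with 2 called lower. Of all genes 12.6% were called lower there. No marker of either list was at 0 in a group, and their part in the Il33 difference was not tested.

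Among the inhibitors, Il1rn showed the largest fold change of the 8 members tested in NeuN-positive nuclei. It had 4.78, 7.10, 8.70, 16.3 and 5.38 CPM in EAE NeuN-positive nuclei, against 0.0499, 0.0325, 0, 0 and 0.0351 CPM in healthy NeuN-positive nuclei. In NeuN-negative nuclei it had 12.1, 10.1, 17.8, 21.4 and 15.8 CPM in EAE mice, against 0.0508, 0.0812, 2.83, 0.796 and 0.284 CPM in healthy mice. Neither sort overlapped, and EAE 4 was the highest in both. The log2 fold change was 7.99 ± 0.67 (edgeR adjusted p = 1.15e-05) in NeuN-positive and 4.66 ± 0.86 (edgeR adjusted p = 0.00108) in NeuN-negative nuclei. The NeuN-negative value was 6.17 ± 0.66 without the 3 high-mitochondrial mice and 6.12 without healthy 3 alone, the healthy library with the most Il1rn. Only 3 Il1rn counts were found over all healthy NeuN-positive libraries, against 482 in EAE, so that the pooled ratio of 267 has a 95% counting interval from 90.7 to 1298.

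The decoy receptor gene Il1r2 had 1.71, 1.89, 3.93, 5.47 and 1.25 CPM in EAE NeuN-positive nuclei, against 0.300, 0.552, 0, 0.822 and 0.561 CPM in healthy NeuN-positive nuclei. NeuN-negative nuclei had 9.56, 1.89, 11.5, 3.40 and 10.2 CPM in EAE mice, against 0.406, 0.162, 1.03, 1.36 and 0.464 CPM in healthy mice. Groups did not overlap in either sort, but EAE 2 and EAE 4 were low in NeuN-negative nuclei. Il1r2 was called in NeuN-positive nuclei at 2.71 ± 0.72 (edgeR adjusted p = 0.0297) and in NeuN-negative nuclei at 3.65 ± 0.76 (edgeR adjusted p = 0.00245; 4.52 ± 0.59 without the 3 high-mitochondrial mice). The NeuN-positive call was lost without EAE 4 (edgeR adjusted p = 0.0653), healthy 1 (0.0874), healthy 2 (0.0796) or healthy 5 (0.0555), while the log2 fold change stayed at 2.32 to 2.77. Neutrophils are known for both Il1rn and Il1r2, and the summed level of 10 neutrophil markers was 31.6 to 169 CPM in EAE NeuN-positive, 12.7 to 22.4 CPM in healthy NeuN-positive, 128 to 540 CPM in EAE NeuN-negative and 86.8 to 137 CPM in healthy NeuN-negative nuclei. Of these markers 6 of 7 tested were called higher in EAE NeuN-positive and 7 of 8 in EAE NeuN-negative nuclei. Cxcr2 was at 0 in every healthy NeuN-positive library, and the part of neutrophil transcripts in the Il1rn and Il1r2 differences was not tested.

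Il18bp, whose product neutralises interleukin-18, was called in neither sort. It had 24.9, 13.4, 37.4, 24.7 and 27.0 CPM in EAE NeuN-positive nuclei, against 40.8, 36.4, 32.7, 41.9 and 33.6 CPM in healthy NeuN-positive nuclei. EAE NeuN-negative nuclei had 39.6, 17.3, 43.7, 13.2 and 20.3 CPM, against 25.6, 22.7, 16.7, 17.6 and 11.3 CPM in healthy NeuN-negative nuclei. The groups overlapped in both sorts, and the log2 fold change was -0.46 ± 0.24 (edgeR adjusted p = 0.222) in NeuN-positive and 0.72 ± 0.35 (edgeR adjusted p = 0.126) in NeuN-negative nuclei. Without the 3 high-mitochondrial mice the NeuN-negative value was 1.08 ± 0.34 and was called (edgeR adjusted p = 0.0306). Il18bp shares 80 exonic bases with Numa1 on the opposite strand, a gene at 252 to 500.5 CPM in EAE NeuN-positive, 275 to 309 CPM in healthy NeuN-positive, 63.4 to 225 CPM in EAE NeuN-negative and 246 to 360.4 CPM in healthy NeuN-negative nuclei, so its counts are uncertain where reads of the 2 strands were not separated.

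Of the receptor chains, Il1r1, the signalling receptor of IL-1, was higher in EAE NeuN-negative nuclei. It had 25.0, 16.1, 27.2, 15.4 and 9.87 CPM there, against 10.1, 4.06, 2.19, 6.14 and 7.66 CPM in healthy NeuN-negative nuclei. EAE 5 lay just under healthy 1 and the other EAE libraries above all healthy ones (log2 fold change 1.89 ± 0.41, edgeR adjusted p = 0.00374). NeuN-positive nuclei had 5.92, 3.95, 7.86, 1.29 and 5.31 CPM in EAE mice, against 5.44, 4.16, 2.09, 2.74 and 5.72 CPM in healthy mice, with wide overlap (0.36 ± 0.45, edgeR adjusted p = 0.632). Endothelial cells and fibroblasts are known sites of Il1r1. In NeuN-negative nuclei the 10 endothelial markers summed to 272 to 1142 CPM in EAE and 343 to 615 CPM in healthy mice, with 1 called higher, and 6 fibroblast markers to 248 to 674 CPM in EAE and 167 to 211 CPM in healthy mice, with 5 called higher. Of all genes 15.1% were called higher there. In NeuN-positive nuclei, where Il1r1 was not called, 5 of the 6 fibroblast markers were called higher and 1 lower, beside 6.55% and 3.68% of all genes. Their sums there were 153 to 347 CPM in EAE and 249 to 417 CPM in healthy mice. No marker of either list was at 0 in a group, and their part in the Il1r1 difference was not tested.

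Il1rap, the accessory chain shared by the receptors of IL-1 and IL-33, was lower in EAE NeuN-negative nuclei, at 11.3, 21.1, 31.4, 14.8 and 29.4 CPM, against 83.5, 85.1, 26.0, 47.4 and 131.5 CPM in healthy NeuN-negative nuclei. As for Il33, healthy 3 was the single healthy library within the EAE range (log2 fold change -1.49 ± 0.39, edgeR adjusted p = 0.0114). NeuN-positive nuclei had 11.7, 6.31, 11.6, 13.1 and 17.4 CPM in EAE mice, against 18.6, 16.7, 11.7, 10.1 and 33.5 CPM in healthy mice, and the difference was not called (-0.50 ± 0.35, edgeR adjusted p = 0.355). Of 5 oligodendrocyte precursor markers, 3 were called lower in EAE NeuN-negative nuclei, with sums of 121 to 314 CPM in EAE and 386 to 939 CPM in healthy mice and no marker at 0. Of the oligodendrocyte markers 6 of 10 and of the astrocyte markers 2 of 10 were called lower there too, beside 12.6% of all genes. The part of any of these cell types in the Il1rap difference was not tested.

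Il1rl1, the receptor of IL-33, had 6.69, 17.3, 3.35, 16.8 and 5.32 CPM in EAE NeuN-negative nuclei, against 1.07, 1.66, 2.06, 1.71 and 2.22 CPM in healthy NeuN-negative nuclei. The groups did not overlap, and EAE 2 and EAE 4 stood well above the other EAE libraries. The log2 fold change was 2.83 ± 0.60 (edgeR adjusted p = 0.0029), and 1.85 ± 0.46 (edgeR adjusted p = 0.00953) without the 3 high-mitochondrial mice, to which both belong. Mast cells are known for this receptor, and 5 mast cell markers summed to 1.54, 20.2, 2.18, 10.8 and 4.21 CPM in EAE NeuN-negative nuclei, highest in the same EAE 2 and EAE 4, against 0.122 to 4.76 CPM in healthy NeuN-negative nuclei, where Cma1 and Fcer1a were at 0. No mast cell marker had enough counts to be tested in either sort, and the part of mast cell transcripts in the Il1rl1 difference was not tested. In NeuN-positive nuclei Il1rl1 had 1.07, 4.26, 0.696, 0 and 0.459 CPM in EAE mice, against 0.0999, 0.162, 0.397, 0.205 and 0 CPM in healthy mice. These groups overlapped (two-sided exact permutation test, p = 0.0714, adjusted p = 0.0952 over the 4 such tests).

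**Figure D2:**
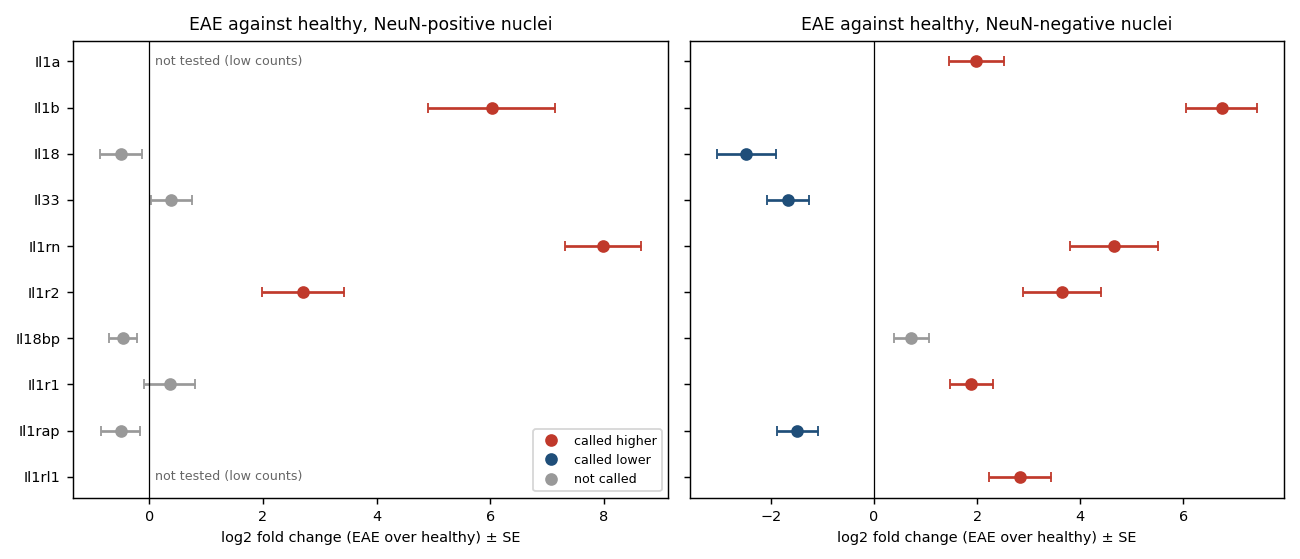
Log2 fold change of EAE over healthy (horizontal axis) with its SE for each gene in NeuN-positive nuclei (left) and NeuN-negative nuclei (right), from edgeR fits of 5 against 5 libraries, with calls in colour. Il1b and Il1rn lie far to the right in both panels (6.03 and 7.99 in NeuN-positive, 6.74 and 4.66 in NeuN-negative nuclei), and Il18, Il33 and Il1rap are called to the left of 0 in NeuN-negative nuclei. In the unpaired interaction fit the difference between the panels was called for Il33 alone. With the sorts paired by number Il18 was called as well.

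Whether the EAE effect differed between the sorts was tested directly as an interaction over all 20 libraries, in which 1.74% of genes were called higher (a more positive EAE effect in NeuN-positive nuclei) and 0.822% lower. This fit took the libraries as independent and did not pair the sorts by number. Of the 10 members edgeR called 1 higher and 0 lower; at an unadjusted p under 0.05 the counts were 5 and 2, and the DESeq2 Wald test called 2 higher and 1 lower. The member called was Il33, at 2.20 ± 0.56 (edgeR adjusted p = 0.0347), which fell in NeuN-negative nuclei and was not called in NeuN-positive nuclei. The call was lost without any 1 of 14 of the 20 libraries (1.78 to 2.33, edgeR adjusted p = 0.053 to 0.107), and without the 3 high-mitochondrial mice it was 1.40 ± 0.44 (edgeR adjusted p = 0.0882). Il1rn at 3.41 ± 1.12 (edgeR adjusted p = 0.0927), Il1a at 2.25 ± 1.04 (0.245) and Il18 at 2.06 ± 0.72 (0.117) had larger standard errors and were not called. Without the 3 high-mitochondrial mice Il1rn was 1.30 ± 0.96 (edgeR adjusted p = 0.521) and Il18 1.35 ± 0.60 (0.239), and Il1rn was 1.81 without healthy NeuN-negative 3 alone. Il18 was called with the replicate number as a block, which takes same-numbered sorts as from the same mouse (2.42 ± 0.56, edgeR adjusted p = 0.0115). With this block 1992 of all genes were called higher and 500 lower, beside 356 and 168 without it. Il1b was -0.52 ± 1.67 (edgeR adjusted p = 0.908), an interval too wide to say that the sorts responded alike. Of all calls in this test 67.9% were higher with TMM scaling and 50% with DESeq2 size factors, which shifted the all-gene median log2 value by -0.25.

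Between the sorts of healthy mice, Il18, Il33, Il1a, Il1rl1 and Il1rap were lower in NeuN-positive nuclei, whereas Il18bp was higher. Of 8 members tested, 5 were lower and 1 was higher, where 23.0% of all genes were called lower and 22.8% higher, and the members' median log2 fold change was -2.7, beside -0.01 over all genes. Il18 averaged 11.0 ± 4.07 CPM in NeuN-positive and 159.7 ± 64.6 CPM in NeuN-negative nuclei (SD, n = 5 each; log2 fold change -3.81 ± 0.34, edgeR adjusted p = 2.83e-06). Il33 averaged 8.11 ± 2.26 CPM in NeuN-positive and 135 ± 63.3 CPM in NeuN-negative nuclei (-3.98 ± 0.39, edgeR adjusted p = 5.93e-06). Il1a (-4.32 ± 0.89), Il1rl1 (-3.43 ± 0.71) and Il1rap (-1.97 ± 0.42) were called lower too, and Il1a was -5.16 without the 3 high-mitochondrial mice. Il18bp was the exception at 37.1 ± 4.15 CPM in NeuN-positive and 18.8 ± 5.53 CPM in NeuN-negative nuclei (1.02 ± 0.23, edgeR adjusted p = 0.00262). Il1r1 (-0.52 ± 0.41, edgeR adjusted p = 0.33) and Il1r2 (-0.48 ± 0.77, edgeR adjusted p = 0.644) were not called. The 2 members below the count filter were Il1rn, with a pooled ratio of 0.0668 and a 95% counting interval from 0.0133 to 0.209 (two-sided exact permutation test, p = 0.00794, adjusted p = 0.0159), and Il1b (exact permutation test, p = 0.151, adjusted p = 0.151). Both tests regrouped the libraries freely, without the pairing by number.

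Between the sorts of EAE mice, edgeR called 6 of the 10 members lower in NeuN-positive nuclei and 0 higher, where 14.8% of all genes were called lower and 15.5% higher (median log2 fold change of the members -1.86, of all genes -0.16). At an unadjusted p under 0.05 and by the DESeq2 Wald test 9 were lower and 0 higher, and without the 3 high-mitochondrial mice 8 were lower and 0 higher. The comparisons between sorts use the same libraries as those between EAE and healthy mice, so their values are not independent. The main fits between sorts did not pair the libraries by number. DESeq2 size factors shifted the all-gene median of this comparison by -0.10 on the log2 scale. Il1rl1 averaged 1.30 ± 1.70 CPM in NeuN-positive and 9.90 ± 6.66 CPM in NeuN-negative nuclei (-3.16 ± 0.88, edgeR adjusted p = 0.0123), and Il1b 5.24 ± 4.90 CPM in NeuN-positive and 29.8 ± 18.2 CPM in NeuN-negative nuclei (-2.57 ± 0.59, edgeR adjusted p = 0.0038). Il1a (-2.17 ± 0.65), Il1r1 (-2.00 ± 0.46), Il33 (-1.93 ± 0.40) and Il18 (-1.79 ± 0.59) were the other members called lower. Without the 3 high-mitochondrial mice Il33 was -2.73, Il18 was -2.37, without NeuN-positive 3 Il1b was -3.25, and without NeuN-positive 2 Il1rl1 was -4.12, all still called. The Il1a call was lost without NeuN-positive 1 (edgeR adjusted p = 0.0559) or NeuN-negative 3 (0.0808). The Il18 call was lost without any 1 of 6 libraries (edgeR adjusted p = 0.0533 to 0.152, with -1.09 without NeuN-negative 3) and with the replicate number as a block (-1.40 ± 0.54, edgeR adjusted p = 0.0607). Il1rn averaged 8.44 ± 4.63 CPM in NeuN-positive and 15.4 ± 4.52 CPM in NeuN-negative nuclei and was not called at -0.99 ± 0.42 (edgeR adjusted p = 0.0797), but was called with the block (-1.08 ± 0.33, edgeR adjusted p = 0.0246) and without the 3 mice (-1.30, edgeR adjusted p = 0.0156). Il1r2 (-1.42 ± 0.65) was called without the 3 mice (-2.19, edgeR adjusted p = 0.00468), and by the DESeq2 Wald test (adjusted p = 0.0369), which also called Il1rn (adjusted p = 0.0399). Il1rap (-0.95 ± 0.38, edgeR adjusted p = 0.068) was called with DESeq2 size factors (-1.06, edgeR adjusted p = 0.0413), by the DESeq2 Wald test (adjusted p = 0.0249) and without NeuN-negative 1 (edgeR adjusted p = 0.0464), and Il18bp (-0.13 ± 0.37) was called in none of these.

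The rank of the genes within a group needs a scale per length, CPM per kilobase of annotated exon, which takes the counts to be of exons. Per kilobase, the healthy NeuN-negative profile was led by Il18 at 155 ± 62.6 (SD, n = 5), with Il33 at 46.8 ± 21.9 and every other member at or below 6.58. In EAE NeuN-negative nuclei Il18 (24.5 ± 24.2), Il1b (15.6 ± 9.53) and Il33 (12.2 ± 6.22) led and lay within each other's spread. In EAE NeuN-positive nuclei Il18bp (8.42 ± 2.82) and Il18 (7.17 ± 3.47) led, as they did in healthy NeuN-positive nuclei (12.3 ± 1.37 and 10.7 ± 3.94), and in neither group did the pair differ beyond its spread. Il1b took the fourth place in EAE NeuN-positive nuclei at 2.75 ± 2.57 and the eighth in healthy NeuN-positive nuclei at 0.0483 ± 0.0941.

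The balance of each inhibitor against its partner was described within each library as the log2 ratio of counts, with 0.5 added to each. This cancels depth but not gene length. Il1rn over Il1b was 1.87, -0.179, -0.525, 3.18 and 1.03 in EAE NeuN-positive nuclei and below 0 in all 5 EAE NeuN-negative libraries (-1.75 to -0.127). By counts, EAE NeuN-positive libraries 1, 4 and 5 thus held more Il1rn, and libraries 2 and 3, with the most Il1b, were near even. Il1rn has 5535 annotated exonic bases and Il1b 1907, so these counts do not compare their levels. Per kilobase, Il1b stood above Il1rn in libraries 2 (4.22 against 1.28), 3 (6.57 against 1.57) and 5 (1.38 against 0.972). It stood below Il1rn in libraries 1 (0.673 against 0.863) and 4 (0.905 against 2.94). Both genes had so few counts in healthy libraries that their ratios (-3.7 to 1.58 in NeuN-positive and -0.737 to 1.24 in NeuN-negative nuclei) say little. Il1r2 over Il1r1 had a median of -1.03 in EAE NeuN-positive, -3.31 in healthy NeuN-positive, -1.38 in EAE NeuN-negative and -4.01 in healthy NeuN-negative nuclei, and only EAE NeuN-positive 4 (2.02) and EAE NeuN-negative 5 (0.05) lay above 0. Il1r2 has 1908 annotated exonic bases and Il1r1 6363. Per kilobase, mean Il1r2 stood above Il1r1 in EAE NeuN-positive (1.49 ± 0.94 against 0.765 ± 0.384) and EAE NeuN-negative nuclei (3.83 ± 2.28 against 2.94 ± 1.13). Both pairs lay within their spread. In healthy mice it stood below Il1r1 (0.234 against 0.633 in NeuN-positive, 0.359 against 0.946 in NeuN-negative nuclei). Il18bp over Il18 was 1.35 to 2.41 in EAE NeuN-positive and 1.31 to 2.33 in healthy NeuN-positive libraries, much the same range. In NeuN-negative nuclei it was -0.538 to 1.84 in EAE and -3.35 to -2.29 in healthy libraries, without overlap. Healthy NeuN-negative nuclei thus held several Il18 counts for each Il18bp count. By counts, EAE NeuN-negative libraries 2 and 4 held more Il18bp, 1 and 5 similar numbers, and 3 more Il18 (1137 against 783). Il18bp has 3026 annotated exonic bases and Il18 1031, so these counts do not compare their levels. Per kilobase, Il18 stood above Il18bp in libraries 1 (34.6 against 13.1), 3 (61.6 against 14.5) and 5 (17.6 against 6.70). It stood below Il18bp in libraries 2 (4.59 against 5.73) and 4 (4.08 against 4.37).

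**Figure D3:**
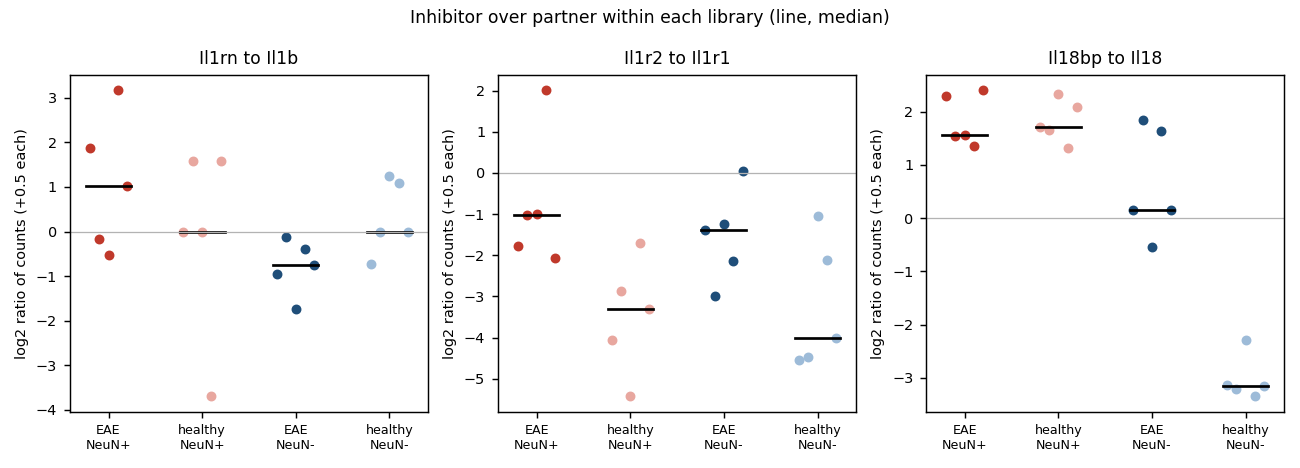
Log2 ratio of inhibitor to partner counts (vertical axes, 0.5 added to each count) in each of the 20 libraries, with lines for the group medians. Il18bp over Il18 lies between 1.31 and 2.41 in all NeuN-positive libraries and between -3.35 and -2.29 in healthy NeuN-negative libraries, with the EAE NeuN-negative libraries between or among the NeuN-positive ones.

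Genes around the family were counted in 4 lists: other ligands and receptors of the family (11 genes), inflammasome and cytokine processing (17), IL-1 receptor signalling (20) and genes known to be induced by IL-1 (22). In both EAE comparisons edgeR called 0 genes of any of the 4 lists lower. At an unadjusted p under 0.05 the lower counts were 0 in every list but signalling, which had 0 in NeuN-positive and 3 in NeuN-negative nuclei, and the DESeq2 Wald test called 1 signalling gene lower in NeuN-negative nuclei and 0 elsewhere. The counts below stand beside the 6.55% and 15.1% of all genes called higher in EAE NeuN-positive and EAE NeuN-negative nuclei. Among the other family members, 3 of 6 tested were higher in EAE NeuN-positive nuclei and 3 of 6 in EAE NeuN-negative nuclei, where the DESeq2 Wald test and the fit without the 3 high-mitochondrial mice each called 5. These 3 were the same in both sorts, the chains of the IL-18 receptor and the IL-36 receptor. Il18r1 averaged 4.27 CPM in EAE and 0.0839 CPM in healthy NeuN-positive nuclei (log2 fold change 5.59 ± 0.78, edgeR adjusted p = 0.000424), and 24.8 CPM in EAE and 0.606 CPM in healthy NeuN-negative nuclei (5.64 ± 0.57). Il18rap reached 4.97 ± 0.71 in NeuN-positive and 5.36 ± 0.66 in NeuN-negative nuclei, and Il1rl2, the IL-36 receptor, 3.74 ± 0.66 in NeuN-positive and 1.26 ± 0.30 in NeuN-negative nuclei. The NeuN-negative call of Il1rl2 was lost without a count filter (0.91, edgeR adjusted p = 0.0952) and in the fit of all 20 libraries (1.02, edgeR adjusted p = 0.0604). The EAE effect on Il1rl2 was larger in NeuN-positive nuclei (interaction 2.62 ± 0.63, edgeR adjusted p = 0.0278), where it averaged 5.02 CPM in EAE and 0.413 CPM in healthy mice, and this call was lost without any 1 of 6 libraries (edgeR adjusted p = 0.0531 to 0.0759). T cells carry the IL-18 receptor, and 10 T cell markers summed to 21.4 to 75.5 CPM in EAE NeuN-positive, 5.26 to 13.2 CPM in healthy NeuN-positive, 118 to 288 CPM in EAE NeuN-negative and 5.15 to 16.2 CPM in healthy NeuN-negative nuclei. Of these markers 6 of 7 tested were higher in EAE NeuN-positive and 10 of 10 in EAE NeuN-negative nuclei, none was at 0 in a group, and their part in the receptor differences was not tested.

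Of the inflammasome genes, 7 of 12 tested were higher in EAE NeuN-positive nuclei (median log2 fold change 2.78) and 13 of 16 in EAE NeuN-negative nuclei (2.32), beside 6.55% and 15.1% of all genes. Pycard, the ASC adaptor that joins the sensors to caspase-1, averaged 12.5 CPM in EAE and 0.422 CPM in healthy NeuN-positive nuclei (4.97 ± 0.42, edgeR adjusted p = 1.34e-05), and 37.9 CPM in EAE and 4.44 CPM in healthy NeuN-negative nuclei (3.35 ± 0.34). Casp4, encoding the caspase of the non-canonical pathway, changed by 4.40 ± 0.55 in NeuN-positive and 3.31 ± 0.43 in NeuN-negative nuclei. The sensor gene Nlrp3 changed by 2.74 ± 0.41 in NeuN-negative nuclei, where it averaged 17.0 CPM in EAE and 3.09 CPM in healthy mice. Within healthy mice 10 of 13 inflammasome genes were lower in NeuN-positive nuclei, beside 23.0% of all genes, among them the ATP receptor gene P2rx7 at 9.14 CPM in NeuN-positive and 102.6 CPM in NeuN-negative nuclei (-3.45 ± 0.19) and the DNA sensor gene Aim2 at 5.27 CPM in NeuN-positive and 98.2 CPM in NeuN-negative nuclei (-4.17 ± 0.27). The interaction called Nlrc4 higher (3.06 ± 0.83, edgeR adjusted p = 0.045) and the neutrophil protease gene Prtn3 lower (-3.06 ± 0.68, edgeR adjusted p = 0.0192). The Nlrc4 call was lost without any 1 of 16 of the 20 libraries and the Prtn3 call without any 1 of 2. In healthy mice Prtn3 was the 1 gene of this list called higher in NeuN-positive nuclei. It averaged 4.28 CPM there and 0.799 CPM in healthy NeuN-negative nuclei (2.48 ± 0.38, edgeR adjusted p = 0.000175).

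Of the signalling genes, 5 of 19 tested were higher in EAE NeuN-positive nuclei (median log2 fold change 0.30) and 3 of 20 in EAE NeuN-negative nuclei (0.04). The NeuN-negative share is that of all genes (15.1%), and the NeuN-positive share stands beside 6.55% of all genes. Without the 3 high-mitochondrial mice the NeuN-negative counts were 5 higher and 1 lower. Those with the smallest p were the same 3 genes in both sorts. Nfkbia, an NF-kappaB inhibitor that is itself an NF-kappaB target, averaged 55.9 CPM in EAE and 14.5 CPM in healthy NeuN-positive nuclei (2.04 ± 0.26, edgeR adjusted p = 0.000206), and 145.6 CPM in EAE and 51.6 CPM in healthy NeuN-negative nuclei (1.71 ± 0.41). Nfkb2 changed by 2.69 ± 0.35 and the kinase gene Irak4 by 2.31 ± 0.48 in NeuN-positive nuclei, and by 1.87 ± 0.42 and 1.48 ± 0.30 in NeuN-negative nuclei. Between the sorts of healthy mice 9 of 20 were lower in NeuN-positive nuclei, beside 23.0% of all genes. Among them Traf6, a ubiquitin ligase downstream of the IRAK kinases, averaged 21.0 CPM in NeuN-positive and 89.2 CPM in NeuN-negative nuclei (-2.04 ± 0.19).

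Genes induced by IL-1, many of which other cytokines also induce, were higher in 9 of 13 tested in EAE NeuN-positive nuclei (median log2 fold change 2.84) and in 14 of 16 in EAE NeuN-negative nuclei (3.93), beside 6.55% and 15.1% of all genes. The acute phase gene Saa3 averaged 71.0 CPM in EAE and 0.36 CPM in healthy NeuN-positive nuclei (7.97 ± 0.94, edgeR adjusted p = 0.000149), and 158.8 CPM in EAE and 0.542 CPM in healthy NeuN-negative nuclei (8.87 ± 1.04). The monocyte chemokine gene Ccl2 changed by 5.74 ± 0.77 and the adhesion molecule gene Vcam1 by 3.75 ± 0.52 in NeuN-positive nuclei. In NeuN-negative nuclei the cyclooxygenase gene Ptgs2 changed by 4.85 ± 0.55 and the NF-kappaB inhibitor gene Tnfaip3 by 3.20 ± 0.34. The EAE effect on Tnfaip3 was smaller in NeuN-positive nuclei (interaction -2.16 ± 0.57, edgeR adjusted p = 0.0398), the only call of this list in that test; it was lost without any 1 of 15 of the 20 libraries. The monocyte and macrophage sums given above were higher in both EAE groups, and their part in the counts of the 4 lists was not tested.

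**Figure D4:**
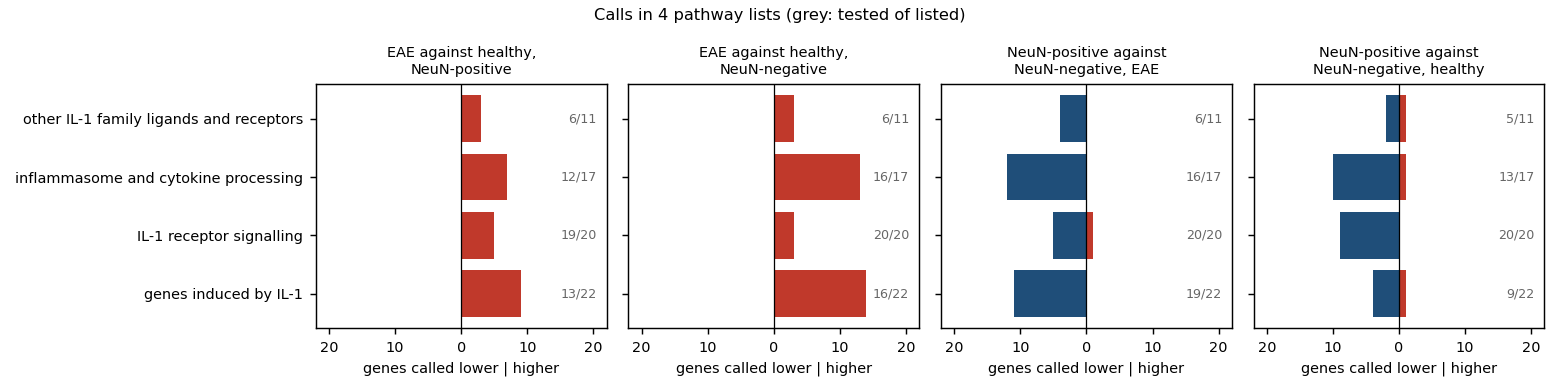
Number of genes of each list called higher (right of 0, red) or lower (left of 0, blue) in 4 comparisons, with the number tested of the number listed in grey. Both EAE panels hold calls to the right only, with 13 of 16 inflammasome and 14 of 16 IL-1-induced genes in NeuN-negative nuclei, and both sort panels hold calls mostly to the left.

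The genes whose pattern over the 20 libraries lay nearest to 3 members were found among 14284 genes by the root mean square difference of standardised log2 CPM. Nearest to Il1b were Fcgr4 (0.248), an Fc receptor gene, the inducible nitric oxide synthase gene Nos2 (0.25) and Slfn1 (0.257). Fcgr4 averaged 8.80 CPM in EAE NeuN-positive, 0.197 CPM in healthy NeuN-positive, 26.9 CPM in EAE NeuN-negative and 0.667 CPM in healthy NeuN-negative nuclei. Nearest to Il33 were Anln (0.186), Gatm (0.2) and Tspan2 (0.201). Anln averaged 15.4 CPM in EAE NeuN-positive, 11.5 CPM in healthy NeuN-positive, 59.3 CPM in EAE NeuN-negative and 276 CPM in healthy NeuN-negative nuclei. Il1r1 had no neighbour as near: Il13ra1 (0.38), Tnfrsf11a (0.471) and Iqgap2 (0.485) were the closest. These values order genes by likeness of pattern and carry no test.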

How the data were processed

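Nuclear RNA was measured by poly-A RNA-seq (per the labels' protocols, TruSeq libraries of RNA from RNeasy columns). The authors deposited raw gene counts, not normalized, in a table of all 20 libraries. STAR 2.4, DESeq2, GRCm39 and mm10 are named, without roles, per the submitters' processing notes; the counting tool, annotation release and strand setting are each not given in the sources used here. Of 43629 genes, 42462 carried a symbol in the reference table and 5168 were at 0 in every library; of 192 list entries, 192 were found, 4 under another symbol.

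Groups came from the titles. Each comparison was fitted on its own 10 libraries (interaction: all 20) with edgeR 4.0.16 under R 4.3.3, after filterByExpr by group and TMM scaling, by the robust quasi-likelihood test, Benjamini-Hochberg adjustment over all genes tested, calls at 0.05. CPM use TMM over the 20 libraries, and means are given ± SD. The deposited counts have no interval of their own; those given cover counting error only. Members below the filter were compared by exact permutation of mean CPM, with libraries taken as unpaired. The script was tested on simulated counts. The 40 pairs of libraries within groups differed by a chi-square per gene of 11.1 to 393, and none was identical.

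The numbers in the titles were taken to pair the sorts. Deviations of same-numbered libraries correlated at 0.115 to 0.379 in EAE and 0.28 to 0.7 in healthy mice. Differently numbered libraries gave -0.242 to 0.187 in EAE and -0.493 to 0.32 in healthy mice. These ranges overlap. Taken per NeuN-positive library, the same-numbered NeuN-negative library of its condition correlated best in every case but healthy 2. That library correlated at 0.28 with its own number and at 0.288 with healthy NeuN-negative 5. The labels do not state the pairing, and these values alone do not settle it. Between EAE and healthy libraries the numbers did not pair (-0.335 to 0.275). The main fits took the libraries as independent, and only the replicate block used the pairing. Alternatives were DESeq2 1.42.0 size factors, its Wald test, no count filter, at least 1 CPM in at least 5 libraries, the replicate block, all 20 libraries in 1 fit, omission of each library, and omission of 3 mice with a high mitochondrial share. The members, gene lists, tests and alternatives were chosen with earlier results of these data known. The genes named are the 10 members, up to 3 called genes each way per list and comparison by smallest p, and the 3 nearest genes of Il1b, Il1r1 and Il33 among genes whose mean log2 CPM was 1 or more; not all are printed. Promoter sequences are from RefSeq, GRCm38.p6, with entries for 10 of 10 members.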

Additional observations from a re-analysis of the deposited data

Results flagged for a closer look

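In each of the 40 groups of 5 libraries (10 genes in 4 groups), the gap between the highest or lowest library and its nearest neighbour was divided by the group's range. It passed Dixon's 95% critical value in 5 of the 40 groups. The critical value flags about 1 in 20 by chance where values are normally distributed. Several groups held counts near 0, and the groups share libraries, so the 5 cannot be set against that rate. EAE 3 had the highest Il1a of EAE NeuN-negative nuclei at 20.2 CPM. Healthy 4 had the highest Il1b of healthy NeuN-positive nuclei at 0.411 CPM. Healthy 3 had the highest Il1b (1.16 CPM) and the highest Il1rn (2.83 CPM) of healthy NeuN-negative nuclei. EAE 2 had the highest Il1rl1 of EAE NeuN-positive nuclei at 4.26 CPM. The effect of EAE on Il33 differed between the sorts, by 2.20 on the log2 scale, in the interaction test (edgeR adjusted p = 0.0347), with 9.90 ± 4.28 CPM in EAE and 8.11 ± 2.26 CPM in healthy NeuN-positive nuclei and 35.1 ± 18.0 CPM in EAE and 135 ± 63.3 CPM in healthy NeuN-negative nuclei (SD, n = 5 each). This call was lost without any 1 of 14 of the 20 libraries, and without the 3 high-mitochondrial mice the difference was 1.40 (edgeR adjusted p = 0.0882). The causes of these 6 patterns were not tested.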

How the results depend on the processing

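No member changed direction with a call under any alternative run, and the count filters, DESeq2 size factors and the Wald test left the member counts of the 4 pairwise comparisons within 1.5 times those reported. In NeuN-positive nuclei the fit on all 20 libraries called 5 members higher, adding Il1a (3.99, edgeR adjusted p = 0.00196) and Il1rl1 (2.95, edgeR adjusted p = 0.0342). In NeuN-negative nuclei that fit did not call Il1a. In the interaction the Wald test called 2 members higher (Il33, and Il1rn at an adjusted p of 0.0499) and 1 lower (Il18bp, -1.28, 0.0436), the replicate block called 2 higher, and omission of the 3 mice called 0. Leaving out 1 library at a time gave 2 to 4 members higher and 0 lower in NeuN-positive nuclei, 5 to 6 higher and 3 lower in NeuN-negative nuclei, 0 higher and 4 to 7 lower between the sorts of EAE mice, 1 higher and 5 lower between those of healthy mice, and 0 to 2 higher and 0 lower in the interaction. With the replicate block, which does not pair EAE with healthy libraries, Il1r2 in NeuN-positive nuclei was 2.68 ± 0.85 (edgeR adjusted p = 0.0821).

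Counts over all genes moved more. In NeuN-positive nuclei edgeR called 1092 higher and 613 lower, the Wald test 1746 and 1247, omission of the 3 mice 317 lower, and omission of 1 library 677 to 1721 and 178 to 1462. In NeuN-negative nuclei 2650 were higher and 2220 lower, with 5618 higher without a filter and 3786 lower in the 20-library fit. Between the sorts of EAE mice 2662 were lower, and 4065 by the Wald test. The interaction gave 356 higher and 168 lower, 236 and 236 with DESeq2 size factors, 649 and 862 by the Wald test, 183 and 85 without a filter, and 1992 and 500 with the replicate block; without the 3 mice it gave 362 lower. Fewer than 10 counts over a healthy group limit the folds of Il1b and Il1rn in NeuN-positive nuclei. The cause of each change was not tested.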
